A study of Mus musculus with 27 samples.

Results

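Thrsp, Car3 and 8 genes of fatty acid synthesis were followed through all 27 libraries of mouse hepatic stellate cells (HSCs), which store vitamin A in the liver. The 10 genes were listed because Car3 and Thrsp had the largest rises from chronic 24 h to chronic 14 d, so their values in that contrast are a description without a test. The list holds 10 of the 53379 genes in the count table, and all 10 passed the filter on low counts. Members are counts per gene on the mouse genome GRCm38, scaled here to CPM, in which every library has the same effective total, and a member was called at an adjusted p below 0.05 in the quasi-likelihood test of edgeR with a change above 2-fold.

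Male Balb/c mice gave all libraries. Healthy mice, 10 to 12 weeks old, received no injection (n = 4). Mice of the same age received 1 intraperitoneal injection of carbon tetrachloride (CCl4) at 0.5 µL per gram of body weight, and their HSCs were collected after 24 h (acute 24 h, n = 3), 72 h (acute 72 h, n = 4) or 7 d (acute 7 d, n = 4). Mice of 8 to 10 weeks received the same dose on a semi-weekly schedule for 4 weeks, and their HSCs were collected 24 h, 72 h or 14 d later (chronic 24 h, chronic 72 h and chronic 14 d, n = 4 each). The CCl4 was diluted in mineral oil, which healthy mice did not receive, so the effects of oil, injection and CCl4 cannot be told apart. HSCs were sorted on their ultraviolet fluorescence, and each repeat was an individual experiment per the methods, so p-values measure the spread between these libraries.

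De novo lipogenesis turns citrate into fatty acids: Acly releases acetyl-CoA in the cytosol, Acaca makes malonyl-CoA, Fasn builds palmitate with NADPH that Me1 helps to supply, and Elovl6 and Scd1 lengthen and desaturate the product. Srebf1 and Mlxipl encode the transcription factors SREBP-1 and ChREBP, which drive these genes in response to insulin and to carbohydrate. Thrsp (Spot 14) is a nuclear protein induced by thyroid hormone and carbohydrate in lipogenic tissue, and Car3 is a cytosolic carbonic anhydrase abundant in adipocytes, muscle and hepatocytes. CCl4 is activated by Cyp2e1 in hepatocytes around the central vein, and HSCs are known for lipid droplets that hold retinyl esters.

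Promoter sequences show what the genes with the largest and the smallest differences carry at their starts. RefSeq (GRCm38.p6) gave promoters of 250 bases before to 50 after the start for 8 of the 10 members, in 12 entries, and held no entry for Car3 or Scd1. Capitals mark matches, on either strand, to the CCAAT box (CCAAT, in 37.4% of all 32851 promoters of that length), the GC box (GGGCGG, 35.7%) and the E-box (CACGTG, 7.15%). Thrsp, among the most variable members, lies at chr7:97417501-97417800 on the minus strand, Fasn, the least variable one, at chr11:120824498-120824797 on the minus strand, and the Mlxipl start nearest to the 5′ end of the gene at chr5:135089640-135089939 on the plus strand:
Thrsp: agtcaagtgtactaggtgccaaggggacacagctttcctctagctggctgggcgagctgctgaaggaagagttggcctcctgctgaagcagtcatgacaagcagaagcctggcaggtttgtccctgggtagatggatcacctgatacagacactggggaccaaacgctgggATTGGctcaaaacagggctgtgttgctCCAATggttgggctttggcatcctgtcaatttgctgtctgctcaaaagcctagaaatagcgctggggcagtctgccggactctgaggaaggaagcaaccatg
Fasn: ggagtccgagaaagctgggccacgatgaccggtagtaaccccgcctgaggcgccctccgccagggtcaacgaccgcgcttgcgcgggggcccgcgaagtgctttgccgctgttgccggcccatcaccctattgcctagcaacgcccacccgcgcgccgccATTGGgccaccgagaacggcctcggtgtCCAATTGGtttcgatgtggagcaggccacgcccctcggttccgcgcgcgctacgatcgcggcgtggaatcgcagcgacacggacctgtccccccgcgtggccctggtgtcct
Mlxipl: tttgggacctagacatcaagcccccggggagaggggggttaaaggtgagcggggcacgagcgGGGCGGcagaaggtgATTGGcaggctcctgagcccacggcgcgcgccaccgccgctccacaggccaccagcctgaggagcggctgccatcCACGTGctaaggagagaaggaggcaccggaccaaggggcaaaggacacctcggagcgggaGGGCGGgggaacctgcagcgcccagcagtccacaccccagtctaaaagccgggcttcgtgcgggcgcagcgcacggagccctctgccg
The Thrsp promoter held 2 CCAAT boxes and the Fasn promoter 3, of which a pair overlaps in the run CCAATTGG. Both genes thus share the CCAAT box, 48 to 79 bases before the start in Thrsp and 55 to 90 in Fasn. Entries of Acly, Me1, Srebf1 and Mlxipl held it too. The part of this box in the levels of the genes was not tested. The Mlxipl promoter held 1 E-box, 1 CCAAT box and 2 GC boxes. The sterol regulatory element TCACNCCAC (N is any base) was found in 1.24% of all promoters and, among the 12 entries of the members, only in the second Mlxipl start at chr5:135106641-135106940. These letters are matches and not shown to be bound.

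Total counts per library ranged from 6314801 to 13052838, and 8 libraries formed a lower-depth class. All of these were chronic, all 4 of chronic 14 d and libraries 1 and 2 of chronic 24 h and of chronic 72 h. Every healthy and acute library was in the higher class, so depth differed along with injury between chronic and other groups, and wholly so at chronic 14 d. All 12 HSC markers (Lrat, Des, Reln, Colec11 and others) were detected in every library, and against healthy 5 of them were called lower at acute 24 h, 6 at acute 72 h, 6 at acute 7 d, 7 at chronic 24 h, 7 at chronic 72 h and 2 at chronic 14 d, with 1 higher at chronic 24 h. Markers of other cells were detected too. The summed CPM of 22 hepatocyte markers (Alb, Apoa1, Cps1 and others) ranged from 1826 to 11963 in healthy, 806 to 1309 in acute 24 h, 2919 to 6221 in acute 72 h, 5349 to 8902 in acute 7 d, 1917 to 6538 in chronic 24 h, 6326 to 9771 in chronic 72 h and 5604 to 24855 in chronic 14 d libraries. Healthy library 4 and chronic 14 d library 2 stood highest in their groups, and the differences most moved by them are also given without them. Of 12 adipocyte markers, 5 to 10 were at 0 in each library, and Adipoq, which defines adipocytes, was at or below 0.263 CPM in all. The sum of the list, 14.9 to 950 CPM, was highest in chronic 14 d, where Pck1, also among the hepatocyte markers, made up most of it with a mean of 378 CPM. In bulk RNA, fewer cells of a type and less RNA per cell cannot be told apart.

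Thrsp and Car3 were lowest 24 h after a single CCl4 injection, and low 24 h after the repeated ones. In healthy HSCs Thrsp stood at 2.99, 5.75, 12.8 and 44.9 CPM. In acute 24 h it stood at 0, 0.781 and 0.351 CPM, in acute 72 h at 6.73, 5.20, 32.1 and 12.1 CPM, and in acute 7 d at 151, 59.0, 24.6 and 78.1 CPM. The acute 24 h libraries lay below all healthy ones, and the acute 72 h ones within or near the healthy range. In chronic 24 h Thrsp stood at 1.05, 2.06, 1.23 and 1.92 CPM, in chronic 72 h at 34.0, 54.0, 69.6 and 131 CPM, and in chronic 14 d at 40.6, 166, 30.5 and 49.1 CPM. The chronic 24 h libraries lay above those of acute 24 h and below all healthy ones, while the ranges of acute 7 d, chronic 72 h and chronic 14 d overlapped one another and the top of the healthy range.

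Car3 was lowest in the same groups as Thrsp, acute 24 h and then chronic 24 h. It stood at 79.0, 153, 168 and 754 CPM in healthy, 0.801, 1.56 and 2.02 CPM in acute 24 h, 47.6, 26.1, 295 and 125 CPM in acute 72 h, and 370.5, 162, 219 and 381 CPM in acute 7 d HSCs. It stood at 14.8, 20.6, 8.33 and 9.84 CPM in chronic 24 h, 438, 346, 529 and 929 CPM in chronic 72 h, and 648, 1776, 347 and 313 CPM in chronic 14 d HSCs. The libraries of acute 24 h, chronic 24 h and healthy formed separate ranges in this order, and the healthy range overlapped those of acute 72 h and all later groups.

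Mlxipl, the gene of the carbohydrate-responsive factor ChREBP, was also lowest in acute 24 h, at a low level. It stood at 1.54, 3.12, 3.37 and 9.79 CPM in healthy HSCs, had no count in any of the 3 acute 24 h libraries, and stood at 0.797, 1.13, 3.25 and 2.25 CPM in acute 72 h and 10.8, 3.77, 3.30 and 8.05 CPM in acute 7 d HSCs. In chronic 24 h it stood at 3.45, 2.06, 0 and 1.36 CPM, in chronic 72 h at 8.40, 10.1, 14.2 and 6.58 CPM, and in chronic 14 d at 16.3, 39.5, 9.38 and 7.93 CPM. Every acute 24 h library lay below every healthy one, and the chronic 24 h libraries overlapped both. The log2 difference of chronic 24 h from healthy in the edgeR test was -1.43 (SE 0.760, adjusted p = 0.162) and was not called. Mlxipl shares 235 exon bases with the antisense gene Gm43500, and the strand of the counting is not stated, so reads of this stretch cannot be told apart.

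**Figure D1:**
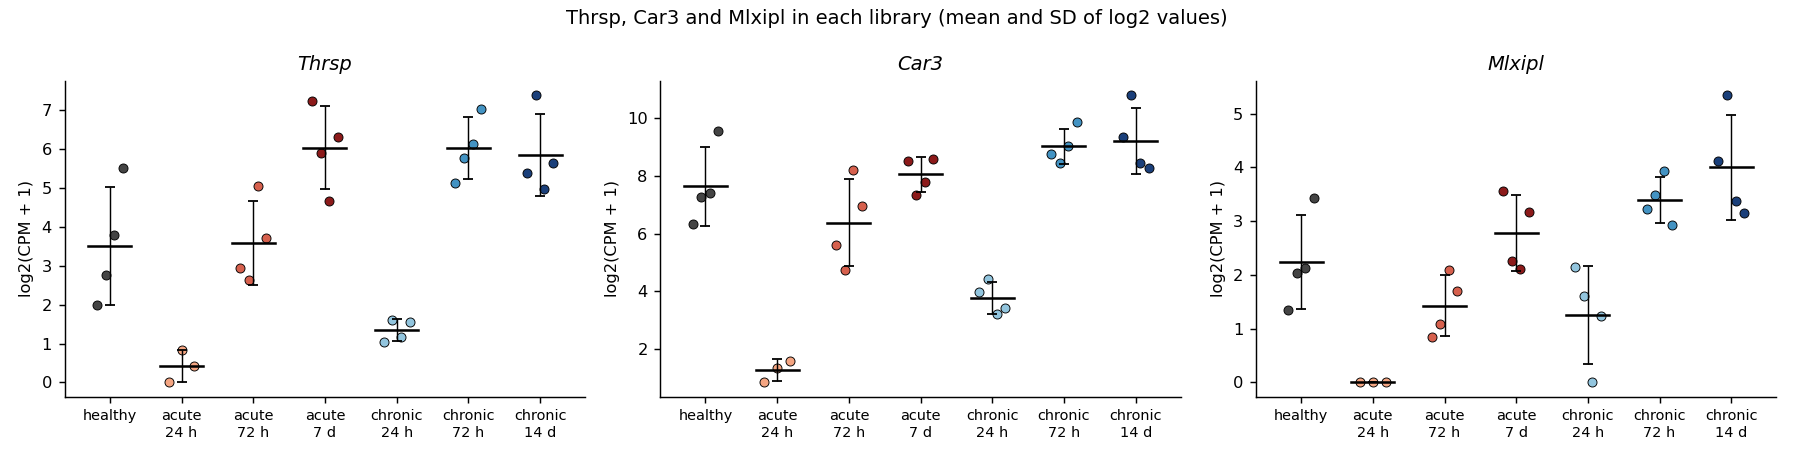
Thrsp, Car3 and Mlxipl by group, with 1 point a library on a log2(CPM + 1) axis, a bar at the mean of the log2 values and whiskers of 1 SD. Thrsp and Car3 are lowest in the 3 acute 24 h libraries and next lowest in the 4 chronic 24 h libraries, and Mlxipl is at 0 in all 3 acute 24 h libraries and in 1 of chronic 24 h.

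The single injection was compared with healthy HSCs first. At acute 24 h 3 of 10 members were called lower and 0 higher, beside 12.5% of all 18758 genes tested called lower and 9.41% higher. Thrsp was lower, with a log2 fold change in the edgeR fit at -5.41 (SE 1.14, adjusted p = 0.000802), between -6.46 and -4.20 when any 1 library was left out. Car3 was lower by -7.61 (SE 1.08, adjusted p = 1.15e-05), between -7.93 and -6.50 with any 1 library left out. Mlxipl was at least 16.9-fold lower (adjusted p = 0.000285), against a floor of 3 counts per library, and at least 10.2-fold lower without healthy library 4. Over the same libraries 18 of the 22 hepatocyte markers were called lower, with a list median of -3.59.

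At acute 72 h none of the 10 members was called, beside 8.23% of all genes called higher and 4.33% lower. The Car3 difference of -1.23 (SE 0.697, adjusted p = 0.224) varied with the libraries, at -2.16 and called without acute 72 h library 3 (adjusted p = 0.0436) and at -0.11 without healthy library 4 (adjusted p = 0.93). At acute 7 d 3 members were called higher and 0 lower, beside 9.23% and 5.64% of all genes. Thrsp was higher by 2.23 (SE 0.767, adjusted p = 0.0377), a call that was lost without healthy library 1, 2 or 3 or acute 7 d library 1 or 4, with differences from 1.71 to 2.23 and adjusted p from 0.0559 to 0.136. Without healthy library 4 it was 3.44. Car3 stood at a mean of 283 CPM ± 109 (SD, n = 4) against 289 ± 313 (n = 4) in healthy HSCs, and at 133 CPM in healthy HSCs without library 4.

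Between the acute time points 4 members rose, Thrsp by 7.64 (SE 1.21, adjusted p = 3.43e-05), Car3 by 7.59 (SE 1.08, adjusted p = 9.62e-06), Scd1 by 2.03 (SE 0.528, adjusted p = 0.0038) and Mlxipl at least 24.5-fold, at least 19.1-fold without acute 7 d library 1. This is the comparison of acute 7 d with acute 24 h, in which 17.8% of all genes were called higher and 9.24% lower. The count stayed at 4 when any 1 library was left out. Hepatocyte markers moved with these genes, 17 of 22 called higher with a list median of 4.26.

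The chronic course showed its lowest levels of Thrsp and Car3 at 24 h as well. Both genes were chosen on libraries of chronic 24 h and chronic 14 d, so their differences here are given without a test. Mean Thrsp was 1.56 CPM ± 0.500 (SD, n = 4) in chronic 24 h against 16.6 ± 19.3 (n = 4) in healthy HSCs, a fitted difference of -3.39 (SE 0.871), or -2.19 without healthy library 4. Mean Car3 was 13.4 CPM ± 5.54 against 289 ± 313, a fitted difference of -4.44 (SE 0.799), or -3.32 without healthy library 4. Of the 22 hepatocyte markers 2 were called lower, Cyp2e1 by -2.60 and Mup3 by -2.97, with a list median of -0.52.

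At chronic 72 h, whose libraries did not enter the choice of Thrsp and Car3, Thrsp was higher than in healthy HSCs by 2.12 (SE 0.765, adjusted p = 0.0536) and missed the threshold. Without healthy library 4 the difference was 3.33 (adjusted p = 0.00478), and without chronic 72 h library 1 it was 2.35 (adjusted p = 0.0451). Car3 differed by 0.96 (SE 0.692, adjusted p = 0.361), and by 2.07 without healthy library 4 (adjusted p = 0.0339). Mlxipl differed by 1.14 (SE 0.710, adjusted p = 0.28). All comparisons with healthy share the same 4 healthy libraries.

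From chronic 24 h to chronic 14 d, the contrast that chose the list, 4 of 10 members were more than 2-fold higher and 0 lower. That count is a description, since the choice fixed part of it. Of all genes, 6.65% were called higher and 6.11% lower, which also asks for the adjusted p and is thus an unlike measure. Car3 differed by 5.85 (SE 0.852) and Thrsp by 5.50 (SE 0.929), with Mlxipl at 3.47 (SE 0.790) and Scd1 at 1.43 (SE 0.467). Rises were ranked among called genes above a minimum mean level, with every chronic 14 d library above every chronic 24 h one. There Car3 and Thrsp were followed by Cyp2e1 at 4.75 (SE 0.781) and Serpina6, the corticosteroid-binding globulin of hepatocytes, at 4.33 (SE 1.05). Without chronic 14 d library 2, mean Thrsp in chronic 14 d was 40.1 rather than 71.6 CPM and mean Car3 436 rather than 771 CPM. Against healthy, chronic 14 d Thrsp differed by 2.11 (SE 0.765) and Car3 by 1.42 (SE 0.699), without a test. These were 3.31 and 2.53 without healthy library 4, and 1.30 and 0.63 without chronic 14 d library 2. Mlxipl differed by 2.03 (SE 0.723, adjusted p = 0.0854), by 2.77 and called without healthy library 4 (adjusted p = 0.0233), and by 1.36 without chronic 14 d library 2 (adjusted p = 0.323). From chronic 24 h to chronic 14 d 12 of the 22 hepatocyte markers were called higher, with a list median of 1.87.

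Single and repeated injury were then compared at matched times. At 24 h, Thrsp was 2.02 higher (SE 1.19) and Car3 3.18 higher (SE 0.916) in chronic than in acute HSCs on the log2 scale, without a test. Mlxipl was called higher (adjusted p = 0.00463), at least 6.51-fold, or at least 4.32-fold without chronic 24 h library 1. It was 1 of the 8 members tested, beside 10.9% of all genes called higher and 3.05% lower, and one chronic 24 h library had no Mlxipl count, as in the acute ones. In the same contrast 13 of the 22 hepatocyte markers were called higher.

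At 72 h, a comparison added after the data had been seen, 4 of 10 members were higher in chronic than in acute HSCs and 0 lower, beside 5.11% and 4.01% of all genes (9.12% in either direction). Scd1 differed by 2.99 (SE 0.493, adjusted p = 0.000211), Thrsp by 2.36 (SE 0.772, adjusted p = 0.0416), Car3 by 2.18 (SE 0.717, adjusted p = 0.0424) and Mlxipl by 2.40 (SE 0.748, adjusted p = 0.0343). For each of these genes no chronic 72 h library lay below any acute 72 h one. The calls of Thrsp, Car3 and Mlxipl were each lost in 6 of the 8 fits that left out 1 library, with differences no lower than 1.90, 1.83 and 2.15, whereas that of Scd1 held in all 8 and was no lower than 2.71. Of the hepatocyte markers 3 of 22 were called higher, among them Cyp2e1 by 4.22.

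Thrsp, Car3 and Mlxipl moved with the hepatocyte markers from library to library. Over all 27 libraries the correlation of log2 CPM with the summed hepatocyte markers was 0.853 for Thrsp, 0.874 for Car3 and 0.924 for Mlxipl. With the group means removed it was 0.667, 0.796 and 0.775. These are descriptions over libraries that share groups and depth. Fasn stood at -0.107 and Srebf1 at -0.0513 over all libraries. Elovl6 stood at 0.395 over all libraries and at 0.607 with the group means removed.

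Set against 1000 CPM of hepatocyte markers, Car3 was 43.2 to 63.1 in healthy and 51.0 to 71.5 in chronic 14 d HSCs, so the high libraries of these groups were high in both measures. The same ratio was 0.994 to 1.85 in acute 24 h and 2.27 to 4.48 in chronic 24 h, below every healthy library. It was 8.01 to 47.4 in acute 72 h, 27.7 to 64.2 in acute 7 d and 36.0 to 95.1 in chronic 72 h HSCs. Thrsp gave 1.64 to 4.12 in healthy, 0 to 0.926 in acute 24 h and 0.161 to 0.779 in chronic 24 h HSCs, and 4.61 to 17.0 in acute 7 d HSCs, above every healthy library. It gave 1.60 to 5.16 in acute 72 h, 3.92 to 13.4 in chronic 72 h and 3.48 to 8.76 in chronic 14 d HSCs, which overlapped the healthy range. Mlxipl gave 0.818 to 1.10 in healthy and 1.38 to 1.59 in chronic 14 d HSCs, ranges that did not overlap although its CPM did. It gave 0 in acute 24 h, 0.264 to 0.769 in acute 72 h and 0 to 0.552 in chronic 24 h HSCs, below every healthy library. Its ratios of 0.617 to 1.36 in acute 7 d and 0.673 to 2.25 in chronic 72 h HSCs overlapped the healthy range. The part of hepatocyte RNA in the differences of these genes was not tested.

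**Figure D2:**
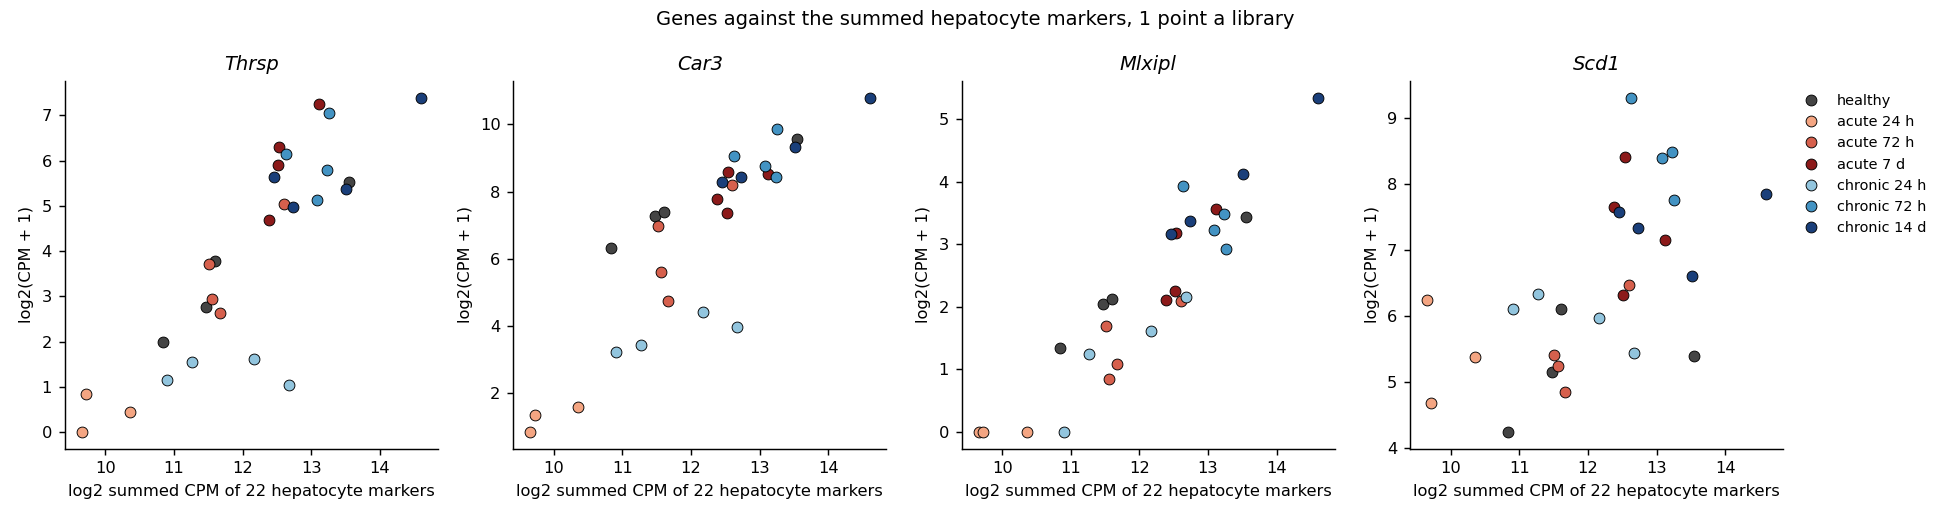
Thrsp, Car3, Mlxipl and Scd1 (log2(CPM + 1), vertical axis) against the log2 summed CPM of 22 hepatocyte markers (horizontal axis), with 1 point for each of the 27 libraries coloured by group. Thrsp and Car3 of the 4 chronic 24 h libraries lie below other libraries of similar hepatocyte marker level, and Mlxipl lies closest to one line, with a correlation of 0.924.

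The genes whose log2 CPM was most like that of Thrsp over the 27 libraries were Hsd3b2 (r = 0.953), Ces1d (0.949), Car3 (0.949), Ttpa (0.944), which encodes the tocopherol transfer protein, and Upp2 (0.940), a uridine phosphorylase. Those most like Car3 were Timd2 (0.972), Cat (0.968), the peroxisomal catalase, Ces1d (0.966), Igfals (0.966) and Hsd3b3 (0.956). Hsd3b2, Hsd3b3 and Ces1d belong to families of near-identical genes and are uncertain in these counts. With a prior count of 0.5 in place of 2, 4 of the 5 genes stayed for Thrsp and 3 of 5 for Car3.

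Scd1, which introduces the double bond of oleate and palmitoleate, was higher than in healthy HSCs at the later times of both courses. It stood at 17.9, 34.4, 67.9 and 41.2 CPM in healthy, 74.9, 24.5 and 40.4 CPM in acute 24 h, 36.7, 27.9, 87.4 and 41.6 CPM in acute 72 h, and 142, 78.7, 199 and 340 CPM in acute 7 d HSCs. It stood at 42.1, 61.5, 67.7 and 79.7 CPM in chronic 24 h, 336, 356, 633 and 216 CPM in chronic 72 h, and 96.1, 229, 161 and 190 CPM in chronic 14 d HSCs. Every library of acute 7 d, chronic 72 h and chronic 14 d lay above every healthy one, while those of acute 24 h, acute 72 h and chronic 24 h overlapped the healthy range.

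Against healthy, Scd1 was higher in acute 7 d by 2.23 (SE 0.479, adjusted p = 0.00152), in chronic 72 h by 3.25 (SE 0.499, adjusted p = 5.91e-05) and in chronic 14 d by 2.06 (SE 0.476, adjusted p = 0.00755). Each of these calls held with any 1 library left out, with differences from 1.79 to 2.61, 2.95 to 3.63 and 1.82 to 2.44. At chronic 24 h the difference was 0.64 (SE 0.462, adjusted p = 0.314), with an interval of -0.32 to 1.59. The correlation of Scd1 with the summed hepatocyte markers was 0.594 over all libraries and 0.0865 with the group means removed. Of 12 macrophage markers 10 were called higher than healthy at acute 7 d, 8 at chronic 72 h and 3 at chronic 14 d. At chronic 24 h, where Scd1 was not called, 8 were called higher. None was called lower in these groups. Summed cholangiocyte markers were 758 to 4797 CPM in acute 7 d and 56.1 to 103 CPM in healthy libraries. The part of these cells in the Scd1 differences was not tested. Scd1 has the close relatives Scd2, Scd3 and Scd4, and reads they share cannot be told apart here.

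Elovl6, which elongates palmitate to stearate, was higher than healthy in 4 comparisons but at a low count. It stood at 0.816, 1.17, 2.27 and 6.93 CPM in healthy, 11.6, 5.30 and 6.23 CPM in acute 24 h, 2.83, 6.49, 11.9 and 5.19 CPM in acute 72 h, and 5.18, 9.92, 6.20 and 12.5 CPM in acute 7 d HSCs. It stood at 10.3, 6.59, 10.0 and 10.2 CPM in chronic 24 h, 17.2, 5.43, 7.39 and 7.52 CPM in chronic 72 h, and 13.2, 21.2, 9.98 and 4.41 CPM in chronic 14 d HSCs. Healthy libraries 1 to 3 lay below every other library, and healthy library 4 lay among the injured ones. Healthy library 4 and chronic 14 d library 2, highest in Elovl6 within their groups, also held the highest hepatocyte marker sums there. The part of hepatocyte RNA in the Elovl6 differences was not tested.

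The Elovl6 difference from healthy was 1.58 at acute 7 d (SE 0.566, adjusted p = 0.0445), 1.72 at chronic 24 h (SE 0.569, adjusted p = 0.0237), 1.73 at chronic 72 h (SE 0.569, adjusted p = 0.0334) and 2.12 at chronic 14 d (SE 0.574, adjusted p = 0.0224). All 4 calls were lost without healthy library 1, 2 or 3, with differences from 1.28 to 2.03. At chronic 72 h the call was also lost without chronic 72 h library 1 (1.27), at chronic 14 d without chronic 14 d library 2 (1.75), and at acute 7 d without acute 7 d library 2, 3 or 4, with differences no lower than 1.33. Without healthy library 4 the 4 differences were 2.56, 2.69, 2.70 and 3.09 in the same order. Without it the difference was also 2.42 at acute 24 h (adjusted p = 0.00284) and 2.20 at acute 72 h (adjusted p = 0.00675), against 1.45 (adjusted p = 0.0645) and 1.23 (adjusted p = 0.124) with it. With these, 1 of 8 members tested was called higher at chronic 24 h, 2 of 10 at chronic 72 h and 2 of 8 at chronic 14 d, and 0 lower, beside 11.2% of all genes called higher and 8.11% lower at chronic 24 h, 7.88% and 4.20% at chronic 72 h, and 4.55% and 1.17% (5.72% in either direction) at chronic 14 d.

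**Figure D3:**
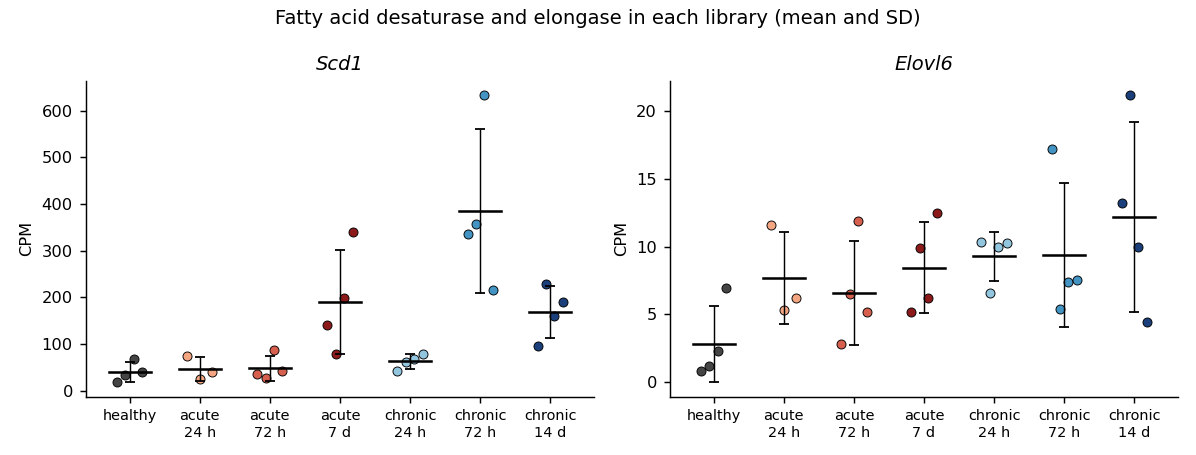
Scd1 and Elovl6 in CPM by group, with 1 point a library, a bar at the mean and whiskers of 1 SD. Scd1 is highest in chronic 72 h (216 to 633 CPM), and 3 of the 4 healthy libraries hold the lowest Elovl6 values.

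The enzymes that make palmitate did not share these differences. Across the 7 groups the highest group mean was 1.33 times the lowest for Fasn, the synthase itself, 1.61 times for Acly, 1.66 times for Acaca and 1.69 times for Me1. As a description, it was 207 times for Thrsp and 528 times for Car3. The highest Car3 mean was that of chronic 14 d, a group that entered the choice of Car3. Without library 2 that mean was 436 rather than 771 CPM. The lowest means of both were those of acute 24 h, where Thrsp had 0, 9 and 4 counts. None of Fasn, Acly, Acaca and Me1 was called in any comparison. Fasn lay between 42.5 and 138 CPM, Acly between 88.5 and 209 CPM, Acaca between 8.16 and 23.7 CPM and Me1 between 34.5 and 85.3 CPM over all 27 libraries. The Fasn difference from healthy had an interval of -0.85 to 0.41 at acute 24 h and of -0.43 to 0.74 at chronic 24 h, which leaves out a 2-fold change.

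Smaller differences passed the adjusted p without reaching 2-fold. Me1, the cytosolic malic enzyme, stood at 63.2, 55.7, 67.8 and 85.3 CPM in healthy and 34.5, 41.0 and 45.2 CPM in acute 24 h HSCs, without overlap, a difference of -0.76 (SE 0.205, adjusted p = 0.00589). Acaca, the rate-limiting carboxylase, was lower at chronic 24 h by -0.73 (SE 0.266, adjusted p = 0.0405). Acly was higher by 0.68 (SE 0.215, adjusted p = 0.0246) and Me1 by 0.57 (SE 0.204, adjusted p = 0.0489) in chronic than in acute 24 h HSCs.

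Srebf1 was lower than healthy after injury, by less than 2-fold. It stood at 122, 208, 191 and 156 CPM in healthy and at 120, 104, 119 and 80.1 CPM in chronic 72 h HSCs, ranges that did not overlap. The difference was -0.68 at chronic 72 h (SE 0.180, adjusted p = 0.0092), -0.57 at acute 72 h (SE 0.180, adjusted p = 0.0248), -0.53 at acute 7 d (SE 0.180, adjusted p = 0.0329) and -0.53 at chronic 24 h (SE 0.180, adjusted p = 0.027). At acute 24 h it was -0.32 (adjusted p = 0.212) and at chronic 14 d -0.30 (adjusted p = 0.34). Srebf1 shares 109 exon bases with Rai1 on the other strand. The counts are per gene, so the SREBP-1a and SREBP-1c transcripts were not separated.

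**Figure D4:**
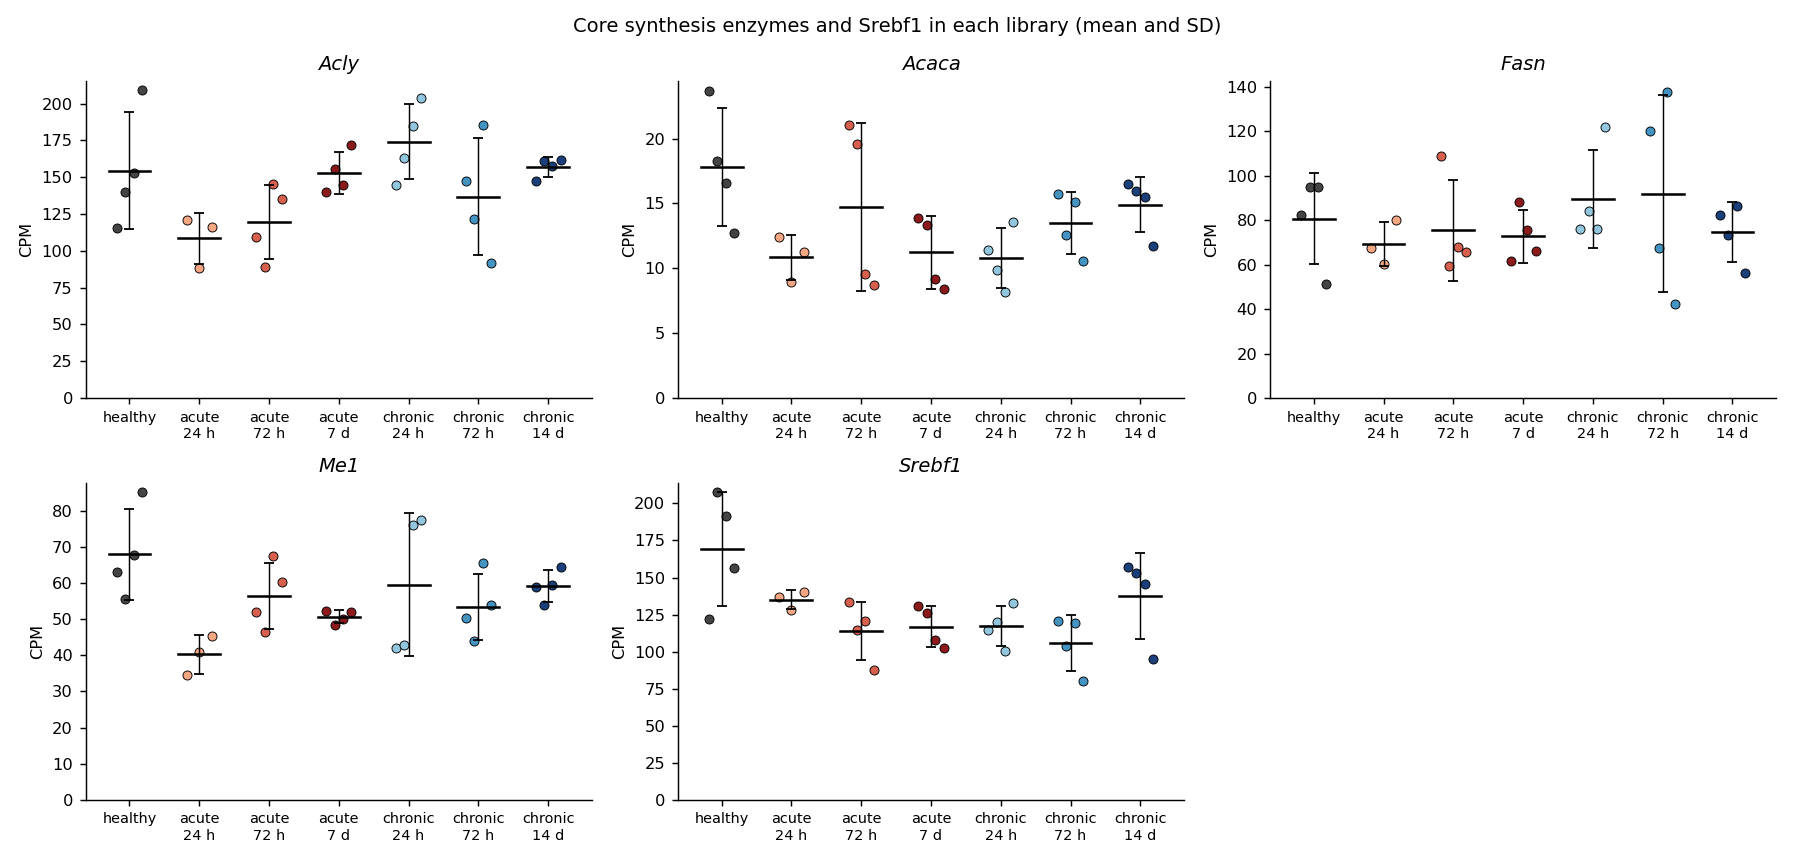
Acly, Acaca, Fasn, Me1 and Srebf1 in CPM by group, with 1 point a library, a bar at the mean and whiskers of 1 SD. Highest group means are 1.33 to 1.69 times the lowest, and Srebf1 is highest in healthy HSCs.

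Levels of different genes were compared only per kilobase of exon. In healthy HSCs Car3 had the highest mean, 101 CPM per kilobase, followed by Srebf1 at 30.0, Acly at 29.3, Me1 at 17.7, Scd1 at 8.25, Thrsp at 7.59 and Fasn at 7.38. The order of Thrsp and Fasn depended on healthy library 4. Without it the mean was 7.18 rather than 16.6 CPM for Thrsp, 90.6 rather than 80.8 CPM for Fasn and 133 rather than 289 CPM for Car3. At chronic 24 h Acly led at 33.0 CPM per kilobase, Car3 stood at 4.68 and Thrsp at 0.715. In chronic 14 d HSCs Car3 stood at 269, Scd1 at 34.5 and Thrsp at 32.7 CPM per kilobase. Without chronic 14 d library 2 the mean there was 436 rather than 771 CPM for Car3 and 40.1 rather than 71.6 CPM for Thrsp. Acaca, Elovl6 and Mlxipl were the lowest members in healthy HSCs, at 1.04, 0.435 and 0.805 CPM per kilobase.

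**Figure D5:**
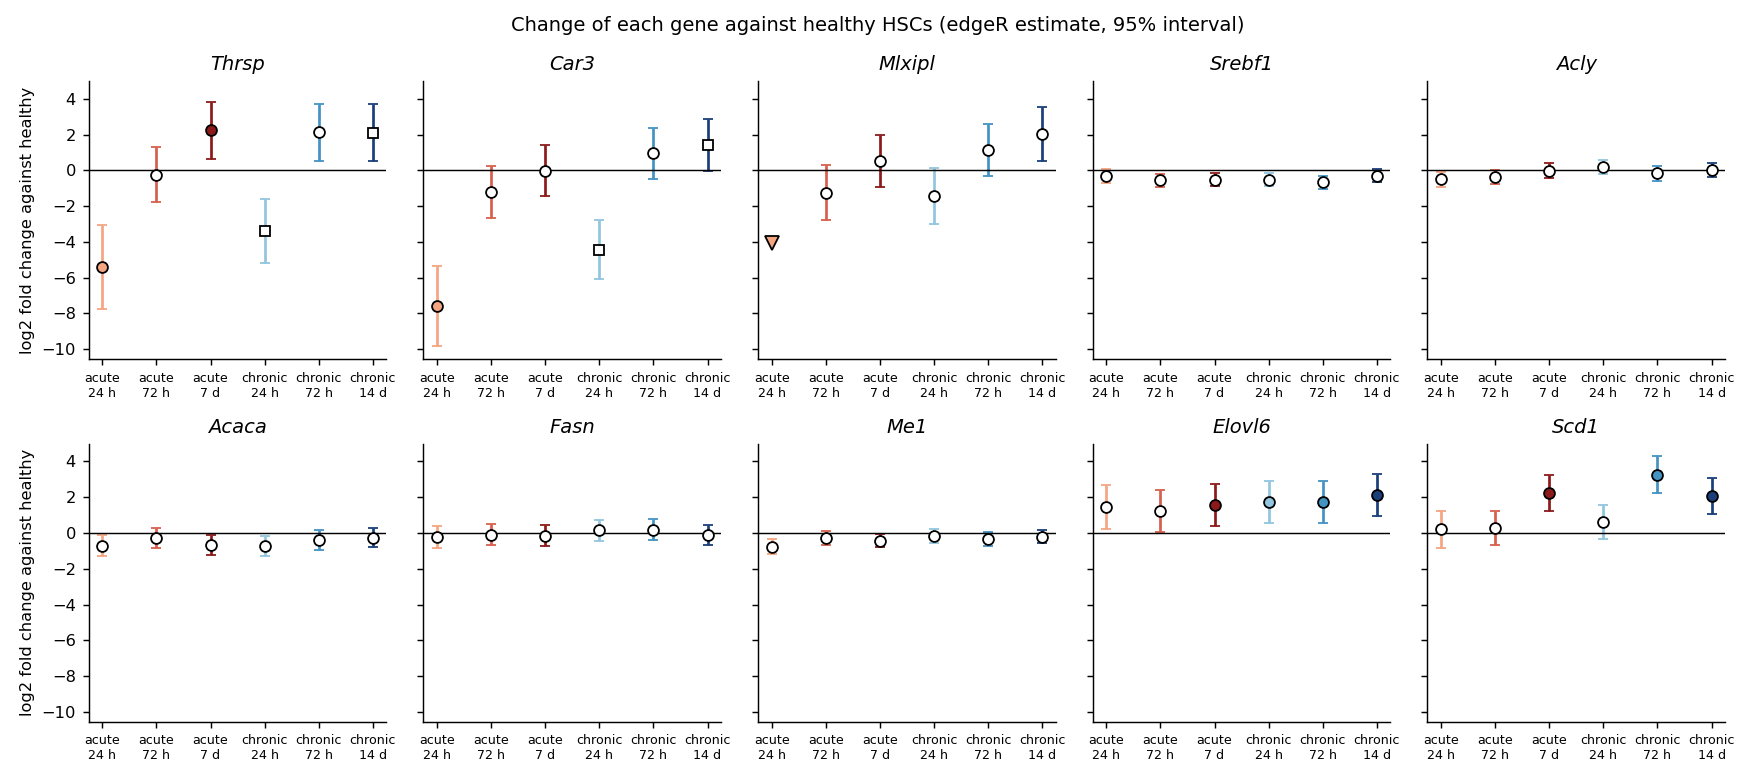
Fitted log2 fold change of each of the 10 genes against healthy HSCs, with 95% intervals. Filled circles were called, open circles were not, open squares are descriptions without a test, and the triangle of Mlxipl marks the bound of at least 16.9-fold lower. Differences of 2-fold and more lie in Thrsp, Car3, Mlxipl, Elovl6 and Scd1.

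The other genes of the pathway were taken from lists that hold none of the 10 members. Their counts stand beside the shares of all genes called higher and lower, 9.41% and 12.5% at acute 24 h, 8.23% and 4.33% at acute 72 h, 9.23% and 5.64% at acute 7 d, 11.2% and 8.11% at chronic 24 h, 7.88% and 4.20% at chronic 72 h, and 4.55% and 1.17% at chronic 14 d. At acute 24 h they also stand beside 18 of 22 hepatocyte markers called lower, whose part in the falls of these lists was not tested. Of 21 further genes of fatty acid synthesis 19 were tested, and 0 rose and 3 fell at chronic 24 h, 0 rose and 2 fell at chronic 72 h, 0 changed at chronic 14 d, 2 rose and 7 fell at acute 24 h, 0 rose and 2 fell at acute 72 h, and 1 rose and 2 fell at acute 7 d, each against healthy. Fads2, the delta-6 desaturase of polyunsaturated fatty acids, fell in 5 of the 6 comparisons with healthy, as did the elongase Elovl3, named after its values were seen. Its mean was 72.4 CPM in healthy HSCs, and it was lower by -2.32 at acute 24 h (adjusted p = 2.72e-06), -1.37 at acute 72 h (adjusted p = 0.000446), -1.44 at acute 7 d (adjusted p = 0.000246), -1.87 at chronic 24 h (adjusted p = 7.65e-06) and -1.79 at chronic 72 h (adjusted p = 2.93e-05). The desaturases Scd1 and Fads2 thus lay on opposite sides of healthy in acute 7 d and chronic 72 h HSCs. Acss2, which makes acetyl-CoA from acetate, fell by 1.06 at chronic 24 h (adjusted p = 0.0031).

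Among 17 genes of NADPH and glycolytic supply, Hk2, a hexokinase, rose in all 6 injury groups, by 1.04 at acute 24 h (adjusted p = 0.00186), 4.49 at chronic 24 h (adjusted p = 1.53e-11), 3.49 at chronic 72 h (adjusted p = 1.22e-09), 1.84 at chronic 14 d (adjusted p = 2.09e-05), 3.17 at acute 72 h (adjusted p = 8.61e-09) and 2.40 at acute 7 d (adjusted p = 1.85e-07). G6pdx, the entry enzyme of the pentose phosphate pathway, rose by 1.01 at chronic 24 h (adjusted p = 7.62e-05). At acute 24 h 3 of the 17 rose and 6 fell, and at chronic 24 h 2 rose and 0 fell. Pgd and Pgls of the pentose phosphate pathway rose at acute 24 h by 1.29 (adjusted p = 3.44e-05) and 1.59 (adjusted p = 3.07e-05).

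Of 16 genes of glycerolipid assembly 14 were tested, and 3 rose and 3 fell at acute 24 h. Plin2, a coat protein of lipid droplets, rose by 1.38 (adjusted p = 0.000531), while Dgat2, which makes triglyceride, and Lpin1, a phosphatidate phosphatase, fell by 2.46 (adjusted p = 0.00024) and 1.98 (adjusted p = 3.21e-05), beside a hepatocyte marker median of -3.59. Lpin3 rose by 2.05 at acute 24 h (adjusted p = 1.56e-07) and by 2.11 at chronic 24 h (adjusted p = 3.78e-08). Lpin1 rose by 1.10 at acute 7 d (adjusted p = 0.00406), by 1.60 at chronic 72 h (adjusted p = 0.000168) and by 1.00 at chronic 14 d (adjusted p = 0.0197), where Dgat2 rose by 1.60 (adjusted p = 0.0118).

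Of 26 regulators of lipogenic genes all were tested, and 1 rose and 7 fell at acute 24 h, 2 rose and 2 fell at chronic 24 h, and 0 changed at chronic 14 d. At acute 24 h Mlx, the partner of ChREBP, rose by 1.21 (adjusted p = 0.00113), while Nr0b2 and Hnf4a, nuclear receptors of hepatocytes, fell by 5.71 (adjusted p = 0.000827) and 3.70 (adjusted p = 0.00127). Thra, a receptor of thyroid hormone, fell at chronic 24 h by 1.45 (adjusted p = 1.54e-05), as did its partner Rxra by 1.11 (adjusted p = 8.2e-05). Thrb, also a thyroid hormone receptor, fell at acute 72 h by 1.34 (adjusted p = 0.0188), where Thrsp was not called. The part of these receptors in Thrsp was not tested. Pparg, the adipogenic nuclear receptor, rose by 2.33 at chronic 24 h (adjusted p = 0.0199) and by 2.90 at acute 7 d (adjusted p = 0.00663). Of 18 genes of fatty acid oxidation 0 or 1 rose and 0 fell in each comparison with healthy other than acute 24 h, where 2 rose and 2 fell. Cd36, a fatty acid transporter that macrophages express as well, rose by 2.44 at chronic 24 h (adjusted p = 0.00355) and by 2.27 at acute 7 d (adjusted p = 0.0083). In these contrasts 8 and 10 of 12 macrophage markers rose too, and their part in Pparg and Cd36 was not tested.

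Of 15 other carbonic anhydrases 11 were tested. Car13, a cytosolic one like Car3, rose against healthy in all 6 injury groups, by 2.22 at acute 24 h (adjusted p = 3.36e-05), 2.36 at acute 72 h (adjusted p = 2.31e-05), 1.83 at acute 7 d (adjusted p = 0.000324), 2.60 at chronic 24 h (adjusted p = 3.13e-06), 1.39 at chronic 72 h (adjusted p = 0.00445) and 1.24 at chronic 14 d (adjusted p = 0.0225). Its level at chronic 24 h was thus high where that of Car3 was low. Car8, a member of the family without enzyme activity, fell at acute 24 h by 2.40 (adjusted p = 0.00214) and was higher by 1.77 in chronic 14 d than in chronic 24 h HSCs (adjusted p = 0.00987). Over the family 2 rose and 5 fell at acute 24 h, beside 9.41% and 12.5% of all genes, and 3 rose and 1 fell at chronic 24 h, beside 11.2% and 8.11%.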

How the data were processed

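Single-end reads of 27 libraries were trimmed and quality-checked by the authors with FastQC, mapped to GRCm38.p6 with STAR and assembled with StringTie. Versions, strand, annotation release and the step to counts are not given in the sources used here. The authors deposited raw counts, which are whole numbers for each of 53379 genes without any normalization. Symbols came from GENCODE M21 for 53274 of them.

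The quasi-likelihood test of edgeR 4.0.16 (with limma 3.58.1, R 4.3.3) was run on the 18758 genes kept by filterByExpr, with TMM scaling and 1 robust model over all 7 groups. Adjusted p-values are Benjamini-Hochberg values over the genes tested. A gene without counts in a group is given as a bound against 3 counts per library, and CPM per kilobase used the union of exons. Total counts of 6314801 to 13052838 limit the precision of low genes such as Mlxipl and Elovl6. The procedure was tested on simulated data. Alternatives were DESeq2 1.42.0, library size alone, other filters, a replicate block, a depth term, no fold minimum, a fit of only the groups compared, and each library left out.

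Members, lists and tests were chosen with earlier results of these data known. All 10 members were named. From each pathway list and comparison called genes were eligible to be named if they were among the 2 highest or 2 lowest and averaged 1 or more in log2 CPM. The acute 24 h value of Hk2 was named outside this rule after it was seen, and some genes of the lists are not reported here.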

Additional observations from a re-analysis of the deposited data

Results flagged for a closer look

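In 3 of the 60 gene and group sets examined, 1 library stood apart from the other 3, as chance does in about 1 in 20. Thrsp in chronic 14 d library 2 was at 166 CPM, against 30.5 to 49.1 CPM in the others. Car3 in healthy library 4 was at 754 CPM, against 79.0 to 168 CPM. Elovl6 in chronic 24 h library 2 was at 6.59 CPM, against 10.0 to 10.3 CPM. The first pair of libraries also held the highest hepatocyte marker sums of their groups, 24855 and 11963 CPM, and the part of this in the values was not tested.

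The change from healthy was called different between chronic and acute injury at the same time for 4 genes, tested as the direct contrast of the injured groups in edgeR. These were 1 of 8 members tested at 24 h and 4 of 10 at 72 h. Beside them, 13.9% and 9.12% of all genes were called in either direction. At 24 h Mlxipl was at least 6.51-fold higher in chronic HSCs. That call was lost in a fit of only the groups compared. At 72 h the log2 difference was 2.36 for Thrsp, 2.18 for Car3, 2.99 for Scd1 and 2.40 for Mlxipl, a comparison chosen after seeing the data. The 72 h calls of Thrsp, Car3 and Mlxipl were each lost in most fits that left out 1 library, whereas that of Scd1 held in all.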

How the results depend on the processing

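Counts of members called moved under some settings and with some libraries left out. Shares of all genes called under each of these settings are not given here. The counts thus show how the calls depended on the processing and are no result about the members. With no filter 1 member was called higher at chronic 72 h, 1 at acute 7 d and 1 between chronic and acute 72 h. With a depth term it was 1 at chronic 14 d and 2 between chronic and acute 72 h. In fits of only the groups compared it was 0 at chronic 24 h, 1 at chronic 72 h, 1 at chronic 14 d, 1 at acute 7 d and 0 between chronic and acute 24 h. With no fold minimum 2 members were lower at chronic 24 h, 1 at chronic 72 h, 1 at acute 72 h and 1 at acute 7 d, and 3 were higher between chronic and acute 24 h. DESeq2 called 1 higher at acute 24 h. Without healthy library 4 and chronic 14 d library 2, 4 were higher at chronic 72 h, 1 at acute 24 h and 1 at acute 72 h. The causes were not tested.

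Leaving out 1 library gave 0 to 1 higher at chronic 24 h, 1 to 4 at chronic 72 h, 1 to 3 at chronic 14 d, 0 to 1 at acute 24 h, 0 to 1 higher and 0 to 1 lower at acute 72 h, 1 to 3 at acute 7 d and 1 to 4 between chronic and acute 72 h. Scd1 at acute 24 h ran from -0.31 to 0.58 and at acute 72 h from -0.20 to 0.63, and Elovl6 between acute 7 d and acute 24 h from -0.12 to 0.55. Thrsp at acute 72 h ran from -1.08 to 0.96, and was 0.96 without both libraries. Car3 at acute 7 d ran from -0.34 to 1.09, and was 1.09 without both libraries, 0.094 with library size alone and 0.000175 with no filter. Among called genes, library size alone put 91.2% higher rather than 79.6% at chronic 14 d against healthy, and 67.2% rather than 52.1% between chronic 14 d and chronic 24 h.

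Deviations of same-numbered libraries correlated between -0.114 and 0.151, and in no comparison were all pairs above 0.1. Chronic 24 h was not paired with chronic 72 h in this check. Libraries 1 and 2 of both groups were of lower depth, so it cannot show that same-numbered libraries had nothing in common. With the replicate block 1 member was called higher between chronic and acute 72 h, Thrsp at acute 72 h was 0.069 and Car3 at acute 7 d was 0.24.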
